A study of Mus musculus with 7 samples.

Results

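The genes of the bone morphogenetic protein (BMP), activin and transforming growth factor beta (TGF-beta) pathway were examined in mouse uterus after infusion of the chemokine CXCL12. The set was chosen by gene symbol and holds 46 of the 23282 rows in each expression table. These are 9 genes grouped as BMP and GDF ligands, 2 activin and inhibin subunits, 5 TGF-beta ligands and latency proteins, 11 receptors, 8 SMADs, 7 antagonists and 4 ID transcription regulators. The group of BMP and GDF ligands holds Bmp1 by its name, although Bmp1 encodes a metalloproteinase and not a ligand. Female C57BL/6 mice of 6 weeks received 100 ng of recombinant human CXCL12 in 30 µl of saline in one uterine horn, and the opposite horn received saline as the control. Transcript levels were measured by QuantSeq, in which reads come from the 3′ ends of mRNAs, and the series holds 2 libraries of saline-treated uterus, 2 of CXCL12-treated uterus at Day 3 and 3 of CXCL12-treated uterus at Day 8. The mice were anaesthetized with tribromoethanol for the infusion, and no genotype other than the strain is named. The study's methods name both days for saline-treated tissue too, but the labels do not give the day of each saline library. The labels do not say which libraries came from separate animals, so each p value measures the spread between these libraries, which may be technical in part.

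Ligands of this family bind pairs of type I and type II serine/threonine kinase receptors, and the activated type I receptor phosphorylates receptor SMADs, which enter the nucleus with SMAD4. BMPs act mainly through SMAD1, SMAD5 and SMAD9, and activins and TGF-betas through SMAD2 and SMAD3, while SMAD6 and SMAD7 restrain the signal inside the cell and noggin, gremlin, chordin and follistatin hold ligands outside it. In the mouse uterus BMP2 is needed for stromal cells to become decidua, BMPR2 for the maintenance of the decidua and its vessels, and follistatin for a receptive endometrium. The ID genes are known direct targets of BMP signalling and encode inhibitors of basic helix-loop-helix transcription factors.

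Levels are given as CPM, which are read counts scaled to a common library size by TMM, in the order of the replicates. The 6 libraries deposited as counts held 6908790 to 12308982 counts, so that 3 counts, taken as the floor, equalled 0.244 to 0.434 CPM, which covers counting error alone. Day 3 replicate 1 was deposited as log2 values, and its CPM were recovered from them. Saline replicate 1 stood apart, with a Pearson r across genes of 0.872 to 0.902 to every other library, and Day 8 replicate 1 was nearer to the Day 3 libraries (0.946 and 0.947) than to Day 8 replicates 2 and 3 (0.89 and 0.892). Its group here is the Day 8 of its label, while its table is named for Day 3. Epithelial, stromal, smooth muscle and endothelial markers of the uterus were above 0 in all 7 libraries for all 10 genes of each list. Their sums ranged over the libraries from 624 to 1287 CPM for epithelium, from 10236 to 19564 CPM for stroma, from 2006 to 5444 CPM for smooth muscle and from 244 to 473 CPM for endothelium, and those of oviduct and mesothelium markers from 542 to 944 CPM and from 287 to 384 CPM. Markers of other tissue varied between libraries. The summed level of 10 ovarian markers (granulosa and luteal) was 161 and 1085 CPM in saline, 6.71 and 7.97 CPM at Day 3, and 92, 3784 and 10.3 CPM at Day 8, with 7 of the 10 at 0 in Day 3 replicate 2 and 6 read as 0 in Day 3 replicate 1, where a value recovered from the log2 table that was below 0.5 was read as 0. The sum of 10 adipocyte markers was 1218 and 3058 CPM in saline, 3463 and 443 CPM at Day 3, and 359 to 555 CPM at Day 8. The sum of 10 macrophage markers was 748 to 857 CPM in saline, 394 to 527 CPM at Day 3 and 369 to 880 CPM at Day 8, and that of 7 blood genes was 5801 to 10196, 16484 to 27539 and 9940 to 18626 CPM. In bulk tissue, fewer cells of a type and less RNA per cell cannot be told apart.

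No member passed the thresholds at Day 8, and Bmp4 was the BMP or GDF ligand with a positive estimate, high in 2 of the 3 Day 8 libraries. Of 43 members tested by edgeR's quasi-likelihood test, 0 passed the study's fold and p thresholds, a 2-fold difference and an unadjusted p of 0.05. Of all 15388 genes tested, 453 (2.94%) passed, 1.53% higher and 1.42% lower. The study's methods also name an FDR cutoff of 0.1, which is given apart below. Of the 43, only Smad7 had an unadjusted p under 0.05, where 4.28% of all genes did. All 3 Day 8 libraries lay outside the range of saline for 7 members (2 higher, 5 lower), against 19.3% of all genes (9.17% higher, 10.1% lower). The median log2 fold change of the members was -0.24, beside -0.01 over all genes, and it was 0.07 without saline replicate 1. Without that library 18 of the 43 members had a negative estimate in place of 29, and 19 members turned sign. Without saline replicate 2 the median was -0.37 over the members and 0.05 over all genes, and 5 members turned sign. With either saline library left out, 1 remains in the group. Leaving out single Day 8 libraries also made calls, and the count over all genes moved too. Without Day 8 replicate 1, 4 members passed, Fst and Bmp4 higher and Smad7 and Bmp7 lower, where 1027 of 15359 genes passed. Without Day 8 replicate 2, Inhba and Bmpr1b passed lower, where 475 of 15212 genes passed. Without Day 8 replicate 3, 0 members and 229 of 15289 genes passed.

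The members that stood out from saline at Day 3 by the test were a lower Inhba and a higher Inhbb, which encode different activin subunits, and lower levels of the receptors Bmpr2 and Bmpr1b and of the ligand Gdf10. These 5 of 43 members passed the same thresholds by limma, 4 lower and 1 higher, where 665 of 14826 genes (4.49%) passed, 386 lower (2.6%) and 279 higher (1.88%). With Smad3 and Id2, 7 members had an unadjusted p under 0.05, against 7.35% of all genes. An edgeR fit on counts estimated for Day 3 replicate 1 passed 602 lower and 162 higher genes. Both Day 3 libraries lay below both saline libraries for 20 members and above them for 3, against 24.5% and 24.3% of all genes (48.8% together). The median log2 fold change was -0.40 over the members and 0.01 over all genes. The median of the members was -0.18 without saline replicate 1 and -0.82 without saline replicate 2, and without saline replicate 1 17 members turned sign. Over all genes the medians without these saline libraries were 0.02 and -0.04. Without Day 3 replicate 1 or 2 the median of the members was -0.46 or -0.47, beside 0.01 over all genes. Each of these fits leaves 1 library in a group. The count of members past the thresholds depended on single libraries, as did that of all genes.

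Between the 2 CXCL12 times, Fst was higher and Inhbb lower at Day 8 than at Day 3. These were the 2 of 43 members that passed the thresholds by limma, where 687 of 14826 genes (4.63%) passed, 335 higher (2.26%) and 352 lower (2.37%). With Bmpr2, Smad3 and Id2, 5 members had an unadjusted p under 0.05, against 7.17% of all genes. With the estimated counts, edgeR passed 563 higher and 265 lower genes. The Day 8 libraries all lay above both Day 3 libraries for 11 members and below them for 4, against 16.3% of all genes in each direction (32.6% together). Without Day 8 replicate 1, 6 members passed (Inhbb, Fst, Bmp4, Chrd, Smad9 and Tgfbr3), and 3 of the members tested had a limma adjusted p under 0.1, as did 482 of all genes. Without Day 8 replicate 3, 3 members passed (Inhbb, Inhba and Bmpr1b), and without Day 8 replicate 2, Inhbb alone did. The count of all genes past the thresholds also moved with the library left out, over the range given in the closing section. These counts of members are therefore not read as a result about the members. Both comparisons with saline use the same saline libraries, so they are given side by side and not counted as support for each other.

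No gene of the tables passed a Benjamini-Hochberg adjusted p of 0.1, the FDR cutoff of the study's methods, in any of the 3 comparisons. The smallest adjusted p over all genes was 0.96 for Day 8 against saline by edgeR, 0.62 for Day 3 against saline by limma and 0.27 for Day 8 against Day 3 by limma. At an unadjusted p under 0.05 there were 658, 1090 and 1063 genes in these comparisons. DESeq2 put 43 genes and 0 members under an adjusted p of 0.1 for Day 8 against saline, and edgeR on the estimated counts put 0 genes there in both comparisons with Day 3. Among the members, the adjusted p ranged from 0.96 to 1.00 by edgeR, and from 0.62 to 0.99 and from 0.68 to 1.00 by limma. Each p given below for a single gene is unadjusted unless it is named as adjusted.

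**Figure D1:**
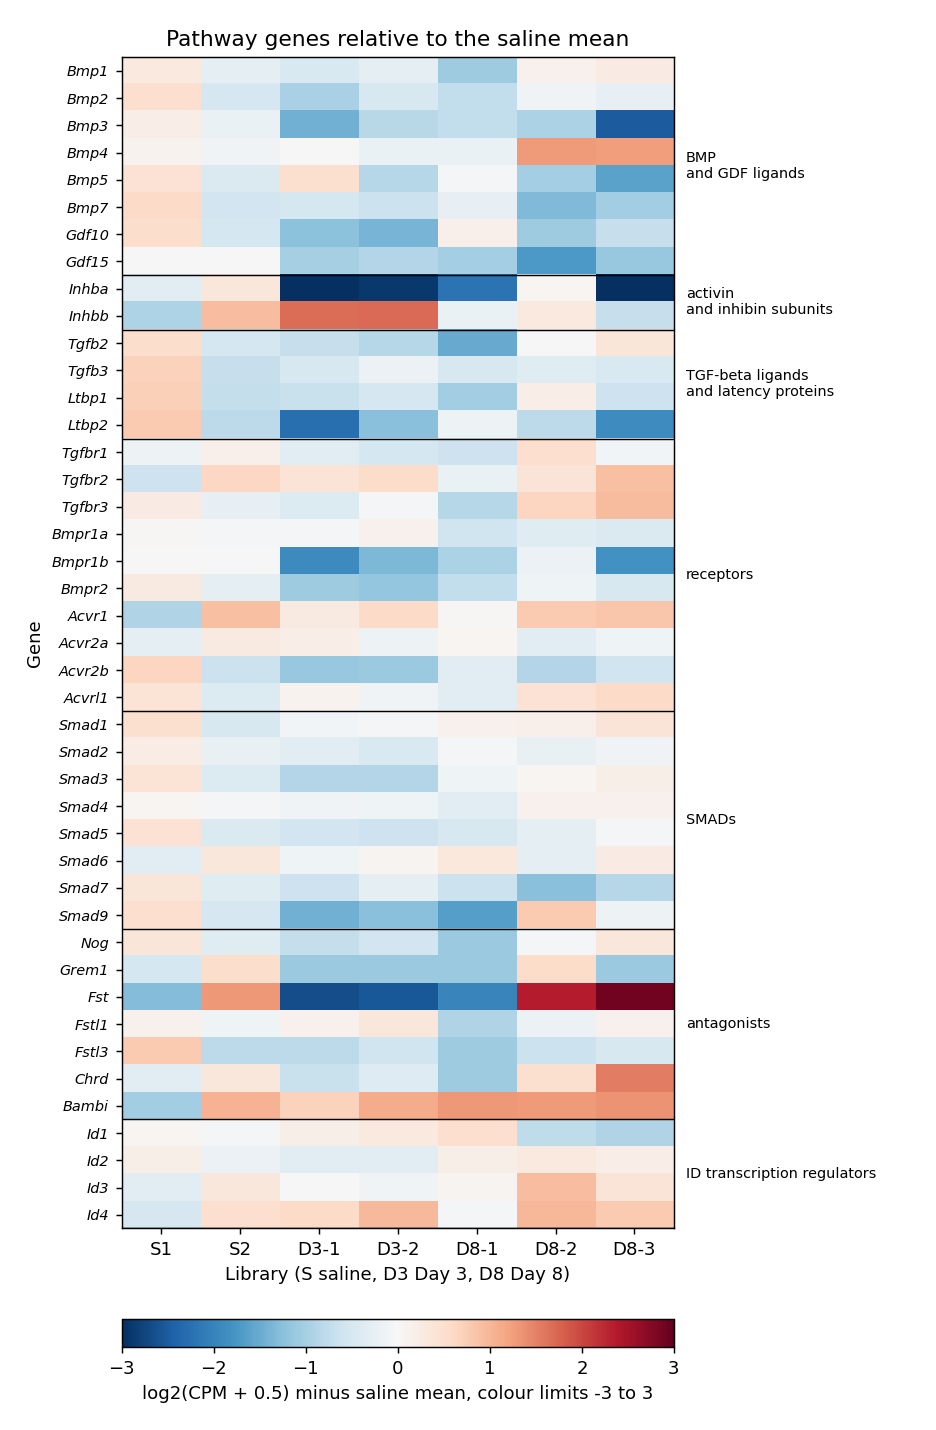
Colour map of the 43 tested members in each library, grouped by role. Each cell is log2(CPM + 0.5) minus the saline mean of that gene, with colour limits of -3 and 3. Inhba is blue in the Day 3 libraries and in Day 8 replicates 1 and 3. Fst is blue in saline replicate 1, in the Day 3 libraries and in Day 8 replicate 1. The columns of Day 8 replicates 2 and 3 part from that of replicate 1 at Bmp4 and Fst.

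Bmp2, the BMP ligand required for decidualization, was at 26.2 and 12.6 CPM in saline, 9.03 and 12.8 CPM at Day 3, and 10.8, 16.9 and 15.2 CPM at Day 8. Saline replicate 1 held the highest value, and saline replicate 2 lay within the range of the CXCL12 libraries at both times. Day 8 differed from saline by a log2 fold change of -0.44 (SE 0.41, edgeR unadjusted p = 0.32) and Day 3 by -0.69 (SE 0.43, limma unadjusted p = 0.15). The 95% confidence interval of the Day 3 difference ran from -1.69 to 0.31, which holds differences of both signs. Without saline replicate 1 the Day 8 difference was 0.18, of the opposite sign. The Day 3 difference was -0.14 without saline replicate 1 and -1.25 without saline replicate 2 (limma unadjusted p = 0.016), where it passed both thresholds. The difference between Day 8 and Day 3 was 0.32 (SE 0.39, limma unadjusted p = 0.44).

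Bmp4, a BMP ligand of the same subgroup as BMP2, was at 50.1 and 42.9 CPM in saline, 47 and 40.3 CPM at Day 3, and 40.4, 114 and 112 CPM at Day 8. Day 8 replicates 2 and 3 were the highest of the 7 libraries, whereas Day 8 replicate 1 was in the range of Day 3 and below saline. The mean at Day 8 was 89.1 ± 42.2 CPM (SD, n = 3), beside 46.5 ± 5.07 CPM in saline (SD, n = 2). The log2 fold change of Day 8 against saline was 0.94 (SE 0.48, edgeR unadjusted p = 0.088), a fold of 1.92. Without Day 8 replicate 1 it was 1.29 with an edgeR unadjusted p of 0.003. Between the CXCL12 times the log2 fold change was 0.95 (limma unadjusted p = 0.07, 95% confidence interval -0.10 to 1.99), and 1.45 without Day 8 replicate 1 (limma unadjusted p = 0.00029). At Day 3 the difference from saline was -0.13 (SE 0.50, limma unadjusted p = 0.79, 95% confidence interval -1.28 to 1.01). The sum of 10 smooth muscle markers was also higher in Day 8 replicates 2 and 3 (5444 and 5173 CPM) than in replicate 1 (2402 CPM), saline (3146 and 2006 CPM) or Day 3 (3876 and 4384 CPM). The sum of 10 endothelial markers was 462 and 473 CPM in Day 8 replicates 2 and 3, beside 244 CPM in replicate 1, 339 and 254 CPM in saline and 277 and 308 CPM at Day 3. The part of these lists in the Bmp4 result was not tested. The gene Gm15217 overlaps Bmp4 on the opposite strand in the GENCODE M21 annotation, and the counting is not stated to use strand, so reads of the pair cannot be told apart. The same holds for Bmp5 with Gm26903, Bmp6 with Txndc5, Acvr2a with Orc4 and Fstl3 with Prss57.

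**Figure D2:**
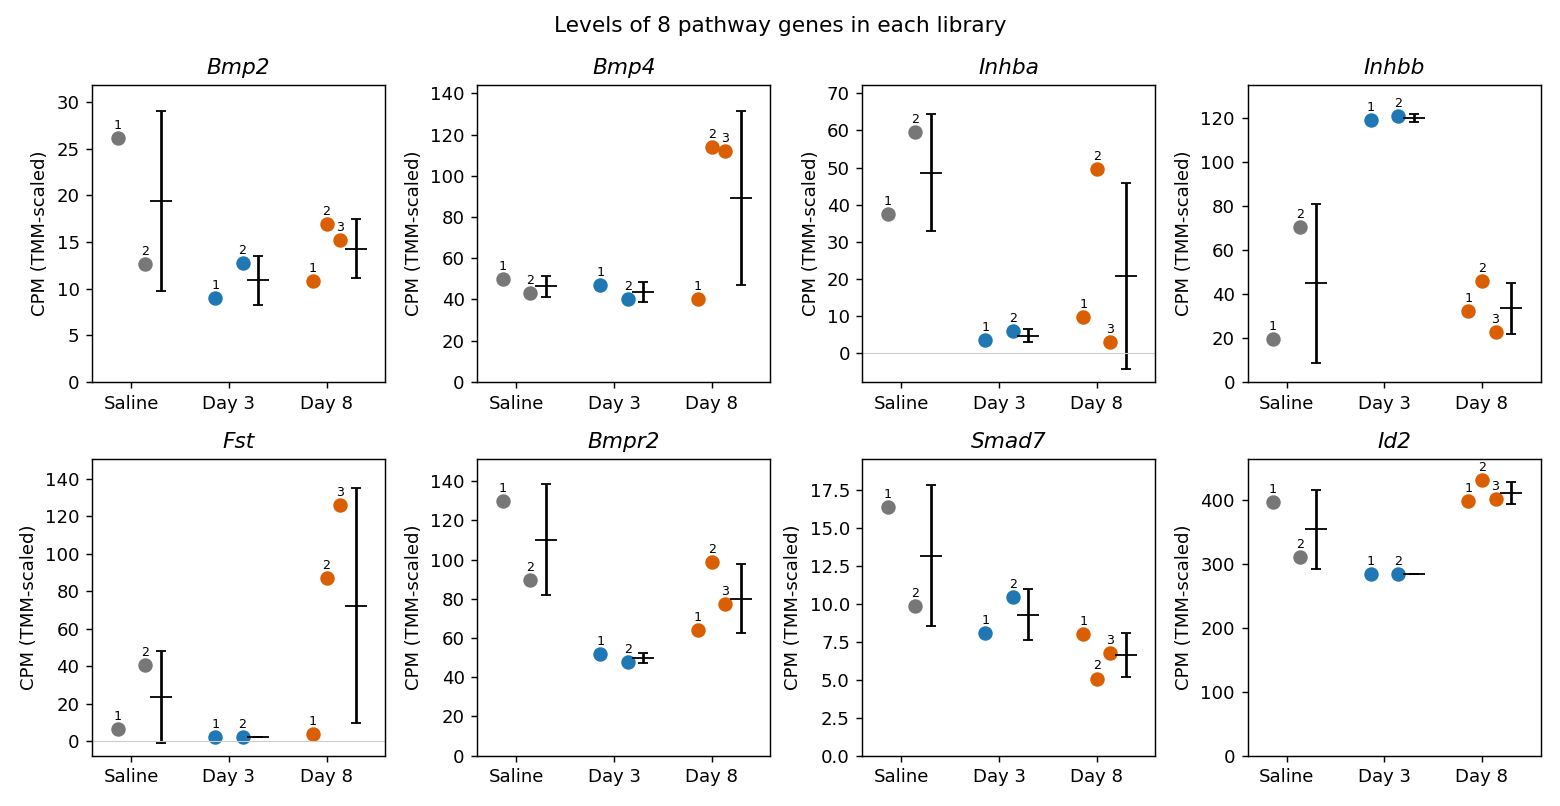
Levels of 8 members in CPM after TMM scaling, on axes that include 0, in saline, CXCL12 Day 3 and CXCL12 Day 8. Each numbered point is 1 library, with the replicate number beside it, and the bar to the right of the points shows the mean ± SD of the group. Bmp4 is highest in Day 8 replicates 2 and 3, Inhbb is above all other libraries at Day 3, and Inhba and Fst are low in both Day 3 libraries.

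The promoter of Bmp4 is shown because the level of Bmp4 set Day 8 replicates 2 and 3 apart from the other libraries. Of the 46 members, 32 had a promoter in the RefSeq table (GRCm38.p6), and each window holds the 250 bases before the gene's start on its strand. Windows were searched on both strands for GGCGCC, known as a BMP-responsive SMAD motif, and for CAGAC with its reverse complement GTCTG, known as a SMAD-binding core. Matches are in capitals. GGCGCC was found in 9.59% of all 32851 promoters and in 9 of the 39 promoters of members, and CAGAC in 42.2% and in 19 of 39. The Bmp4 window, at chr14:46390670-46390919 on the minus strand, held neither.
Bmp4: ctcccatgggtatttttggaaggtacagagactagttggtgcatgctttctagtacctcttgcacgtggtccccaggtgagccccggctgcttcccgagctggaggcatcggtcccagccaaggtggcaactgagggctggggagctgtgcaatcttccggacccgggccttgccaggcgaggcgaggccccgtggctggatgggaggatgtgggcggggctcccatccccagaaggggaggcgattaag

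Gdf10 (BMP3b), a ligand near to BMP3 in sequence, was the ligand of the BMP and GDF group that passed at Day 3. Gdf10 was at 118 and 56 CPM in saline, 34.1 and 30.7 CPM at Day 3, and 91, 38.8 and 50.1 CPM at Day 8. Both Day 3 libraries were below every other library. The fold was 2.61 lower at Day 3 than in saline (log2 fold change -1.39, SE 0.49, limma unadjusted p = 0.021). Without saline replicate 1 the log2 value was -0.78 (limma unadjusted p = 0.15), and the unadjusted p was also above 0.05 without Day 3 replicate 1 (limma unadjusted p = 0.059) or replicate 2 (limma unadjusted p = 0.08). At Day 8 against saline it was -0.54 (SE 0.47, edgeR unadjusted p = 0.29).

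Bmp7, another BMP ligand, was at 22.6 and 9.97 CPM in saline, 10.3 and 9.44 CPM at Day 3, and 12.6, 5.67 and 7.01 CPM at Day 8. The groups overlapped, and the log2 fold change at Day 8 against saline was -0.95 (SE 0.51, edgeR unadjusted p = 0.1). It was -0.24 without saline replicate 1, and it passed both thresholds without saline replicate 2 (-1.42, edgeR unadjusted p = 0.038) and without Day 8 replicate 1 (-1.36, edgeR unadjusted p = 0.034). Bmp3, which opposes other BMPs, was at 8.28 and 6.06 CPM in saline, 2.29 and 3.78 CPM at Day 3, and 4.02, 3.42 and 0.837 CPM at Day 8. Every CXCL12 library was below both saline libraries for Bmp3, with a log2 fold change of -1.37 (SE 0.67, edgeR unadjusted p = 0.078) at Day 8 and -1.14 (SE 0.72, limma unadjusted p = 0.15) at Day 3. Gdf15, a stress-induced ligand, was also below saline in every CXCL12 library, but rested on 20 or fewer counts per library. It had 16 and 20 counts in saline, 8 counts in Day 3 replicate 2, and 6, 3 and 6 counts at Day 8, with an edgeR log2 fold change of -1.89 (SE 0.82, unadjusted p = 0.054). Bmp1, grouped here by its name, encodes the metalloproteinase that processes procollagen and chordin and is not a ligand. It ranged from 12.9 to 33.9 CPM and had a log2 fold change of -0.15 (SE 0.45) at Day 8. Bmp5 had at most 16 counts in a library. Bmp6 had at most 7 counts, lay at or under the floor in 5 of the 6 count libraries and was not tested. At Day 8, 7 of the 8 tested genes of this group, Bmp1 among them, had a negative estimate and Bmp4 a positive one. At Day 3 all 8 estimates were negative, between -1.39 and -0.04, and 1 of them passed. Part of these signs rested on saline replicate 1, without which 4 of the 8 genes had a negative estimate at Day 8 and 4 at Day 3. The median over the group, with Bmp1, then went from -0.74 to -0.07 at Day 8 and from -0.62 to -0.07 at Day 3.

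Inhba and Inhbb encode the beta A and beta B subunits that form activins as pairs with each other and inhibins as pairs with the alpha subunit from Inha. Inhba was at 37.5 and 59.7 CPM in saline, 3.54 and 5.98 CPM at Day 3, and 9.81, 49.6 and 3.14 CPM at Day 8. Both Day 3 libraries were below both saline libraries, and the Day 8 libraries covered the range from Day 3 to saline. The fold was 9.57 lower at Day 3 than in saline (log2 fold change -3.26, SE 1.06, limma unadjusted p = 0.015). Without saline replicate 2 the log2 value was -2.96 (limma unadjusted p = 0.077), and without Day 3 replicate 1 it was -2.90 (limma unadjusted p = 0.07). At Day 8 against saline it was -1.21 (SE 0.95, edgeR unadjusted p = 0.24). That difference was -2.91 without Day 8 replicate 2 (edgeR unadjusted p = 0.002), past both thresholds, and -0.71 without Day 8 replicate 3.

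Inha, Gdf9 and Bmp15, of which the latter pair are oocyte ligands of the same family, were high and low in the same libraries. Inha was at 45.1 and 141 CPM in saline, 0.319 and 1.57 CPM at Day 3, and 15, 135 and 0.314 CPM at Day 8. Gdf9 was at 19.4 and 20.4 CPM in saline, 0.423 and 0.419 CPM at Day 3, and 7.33, 22.7 and 3.14 CPM at Day 8. In the count libraries Bmp15 had 23 and 53 counts in saline, 0 in Day 3 replicate 2, and 4, 64 and 0 at Day 8. All of these genes, like the sum of the 10 ovarian markers, which include Inha, were high in saline and in Day 8 replicate 2 and low at Day 3 and in Day 8 replicate 3. At Day 3 against saline the limma unadjusted p was 0.00022 for Gdf9, 0.019 for Inha and 0.037 for Bmp15, with an adjusted p of 0.62 for each. Of the 9 ovarian markers tested, 4 passed lower at Day 3 and 0 higher. These ovarian and oocyte genes moved with Inhba, and their part in the Inhba result was not tested.

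**Figure D3:**
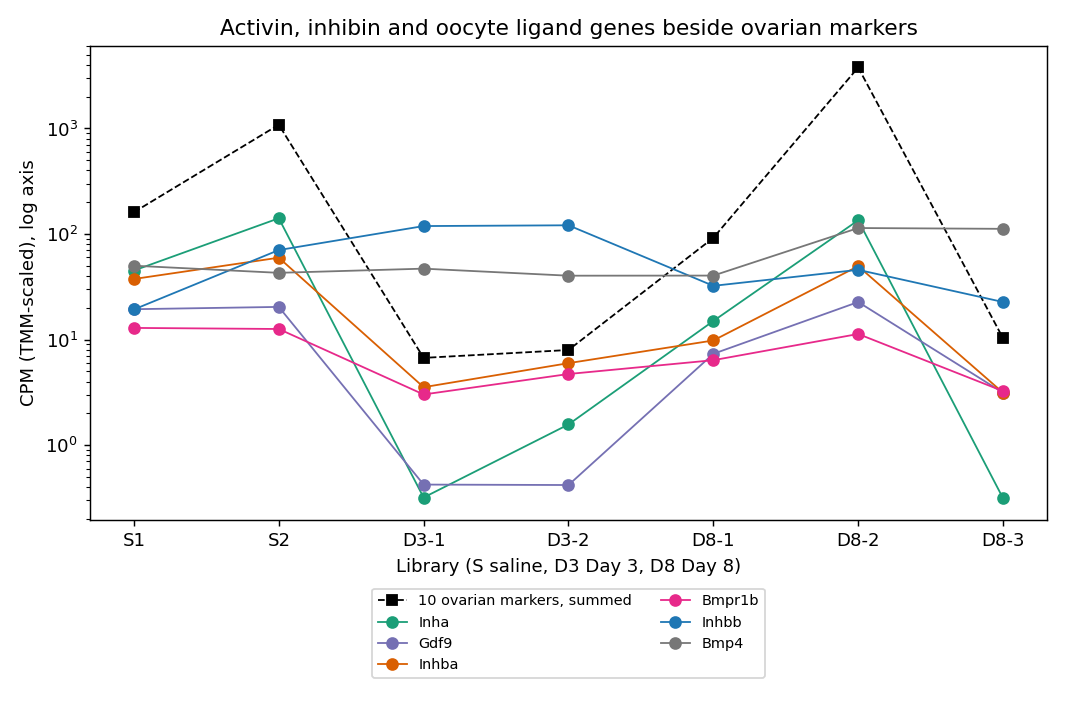
Levels of Inhba, Inhbb, Bmpr1b and Bmp4 in each library, in CPM on a log axis, beside Inha, Gdf9 and the summed level of 10 ovarian markers (dashed). Lines join the values of 1 gene and carry no order of the libraries. Inhba, Bmpr1b, Inha and Gdf9 are low in the Day 3 libraries and in Day 8 replicate 3, where the marker sum is lowest, while Inhbb is highest in the Day 3 libraries and Bmp4 in Day 8 replicates 2 and 3.

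Inhbb went the other way. It was at 19.3 and 70.5 CPM in saline, 119 and 121 CPM at Day 3, and 32.3, 45.8 and 22.7 CPM at Day 8. Both Day 3 libraries were above all 5 others, and the Day 8 libraries lay within the range of saline. The fold was 3.03 higher at Day 3 than in saline (log2 fold change 1.60, SE 0.57, limma unadjusted p = 0.023) and 3.48 lower at Day 8 than at Day 3 (log2 fold change -1.80, SE 0.52, limma unadjusted p = 0.0086). The 2 saline libraries stood far apart, and without saline replicate 1 the Day 3 difference was 0.70 (limma unadjusted p = 0.14). Without Day 3 replicate 1 or 2 it was 1.61 (limma unadjusted p = 0.069) or 1.57 (limma unadjusted p = 0.076). The difference between Day 8 and Day 3 kept an unadjusted p under 0.05 by limma without each library in turn, at log2 fold changes between -2.07 and -1.54. At Day 8 against saline the log2 fold change was -0.42 (SE 0.55, edgeR unadjusted p = 0.47), and -1.07 without saline replicate 1 (edgeR unadjusted p = 0.048), past both thresholds. It was 0.80, of the opposite sign, without saline replicate 2. The ovarian marker sum was 6.71 and 7.97 CPM in the Day 3 libraries, where Inhbb was highest. It was 10.3 CPM in Day 8 replicate 3, where Inhbb was the second lowest of the 7 libraries. Blood genes were also higher at Day 3 than in saline, 3 of 7 past the thresholds, and the part of neither list in the Inhbb result was tested.
The promoters of the subunit pair that differed in opposite directions at Day 3 are shown for comparison, Inhba at chr13:16011601-16011850 on the plus strand and Inhbb at chr1:119422249-119422498 on the minus strand. The Inhba window had 43.2% G and C bases and that of Inhbb 68%, and neither held either motif.
Inhba: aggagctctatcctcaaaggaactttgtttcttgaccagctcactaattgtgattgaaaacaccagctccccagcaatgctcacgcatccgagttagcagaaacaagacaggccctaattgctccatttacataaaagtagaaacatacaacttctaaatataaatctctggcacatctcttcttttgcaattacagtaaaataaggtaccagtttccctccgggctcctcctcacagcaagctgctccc
Inhbb: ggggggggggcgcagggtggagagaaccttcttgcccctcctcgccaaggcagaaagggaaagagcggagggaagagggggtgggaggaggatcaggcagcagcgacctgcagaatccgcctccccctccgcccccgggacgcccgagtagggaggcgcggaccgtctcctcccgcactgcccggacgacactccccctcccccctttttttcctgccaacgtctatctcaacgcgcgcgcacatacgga

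The TGF-beta ligands and the latent TGF-beta binding proteins gave no member that passed in the 3 comparisons with all libraries. Tgfb2 was at 57.2 and 27.1 CPM in saline, 24.4 and 21.7 CPM at Day 3, and 13.5, 39.9 and 50.7 CPM at Day 8. The groups overlapped at Day 8, and the log2 fold changes against saline were -0.76 (SE 0.63) for Day 3 and -0.28 (SE 0.58) for Day 8. Tgfb3 was at 35 and 13.3 CPM in saline and between 15.3 and 19.2 CPM in all 5 CXCL12 libraries. Its log2 fold change at Day 8 was -0.60 (SE 0.43, edgeR unadjusted p = 0.2) and 0.25 without saline replicate 1, and it passed both thresholds without saline replicate 2 (-1.14, edgeR unadjusted p = 0.0086). Ltbp2 was at 5.44 and 1.47 CPM in saline, 0.215 and 0.944 CPM at Day 3, and 2.6, 1.5 and 0.419 CPM at Day 8 (Day 3 log2 fold change -2.08, SE 1.04, limma unadjusted p = 0.081). Ltbp1, which holds latent TGF-beta in the matrix, ranged from 27.9 to 95.9 CPM with its highest value in saline replicate 1. Tgfb1 had at most 2 counts in a library and was not tested. Its 3′ end shares no sequence word of 50 bases with another gene in GENCODE M21, and the cause of its low count was not tested. All 4 tested members had negative estimates against saline at both times, but without saline replicate 1 0 of the 4 did at Day 8 and 2 of the 4 at Day 3. Their median then went from -0.58 to 0.30 at Day 8 and from -0.70 to -0.02 at Day 3.

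Among the receptors, Bmpr2, the type II receptor for BMPs, had the smallest p of all members at Day 3. It was at 130 and 89.5 CPM in saline, 51.6 and 47.9 CPM at Day 3, and 64, 98.7 and 77.5 CPM at Day 8. Both Day 3 libraries were below all 5 others, and the Day 8 libraries overlapped saline. The mean was 110 ± 28.3 CPM in saline (SD, n = 2), 49.7 ± 2.57 CPM at Day 3 (SD, n = 2) and 80.1 ± 17.5 CPM at Day 8 (SD, n = 3). The fold was 2.3 lower at Day 3 than in saline (log2 fold change -1.20, SE 0.32, limma unadjusted p = 0.0054). Without saline replicate 1 the log2 value was -0.88 (limma unadjusted p = 0.029), under a fold of 2, and the call held without each of the others. The level at Day 8 exceeded that at Day 3 by 0.71 on the log2 scale (SE 0.29, limma unadjusted p = 0.04), short of a fold of 2, and the p was above 0.05 without either Day 3 library and without Day 8 replicate 2 or 3.

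Bmpr1b, a type I receptor for BMPs that is known for its role in ovarian follicles, was at 12.9 and 12.6 CPM in saline, 3.02 and 4.72 CPM at Day 3, and 6.38, 11.3 and 3.25 CPM at Day 8. Every CXCL12 library was below both saline libraries, with Day 8 replicate 2 nearest to them. The fold was 3.12 lower at Day 3 than in saline (log2 fold change -1.64, SE 0.56, limma unadjusted p = 0.02), and the unadjusted p was 0.07 without saline replicate 1, 0.055 without saline replicate 2 and 0.11 without Day 3 replicate 1. At Day 8 against saline the log2 fold change was -0.86 (SE 0.53, edgeR unadjusted p = 0.15). It was -1.40 without Day 8 replicate 2 (edgeR unadjusted p = 0.036), past both thresholds, and -0.52 without Day 8 replicate 3. The ovarian marker sum gave the same order of the Day 8 libraries, at 92, 3784 and 10.3 CPM. In saline the sum was 161 and 1085 CPM, while Bmpr1b was nearly level between those libraries. The part of the ovarian list in the Bmpr1b result was not tested.

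Bmpr1a, the type I receptor found widely in the uterus, was at 72.3 and 69.2 CPM in saline, 68.8 and 77.8 CPM at Day 3, and 46.7, 55 and 51.9 CPM at Day 8. All 3 Day 8 libraries were below the 4 others (log2 fold change against saline -0.47, SE 0.25, edgeR unadjusted p = 0.11, and against Day 3 -0.45, SE 0.21, limma unadjusted p = 0.065). The TGF-beta receptors and the remaining activin receptors gave no p under 0.05. Tgfbr1 ranged from 16.1 to 35.9 CPM, Tgfbr2 from 53.4 to 155 CPM, and the co-receptor Tgfbr3 from 31.4 to 112 CPM over the 7 libraries. Acvr1 ranged from 9.64 to 35.5 CPM, with its lowest value in saline replicate 1. Acvr2a ranged from 24.7 to 37.4 CPM and Acvrl1, the endothelial receptor ALK1, from 12.1 to 24.5 CPM. Acvr2b was below saline in both Day 3 libraries (2.28 and 2.31 CPM, beside 9.02 and 3.42 CPM), with an unadjusted p of 0.098 by limma. Acvr1b had at most 10 counts in a library and was not tested.

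**Figure D4:**
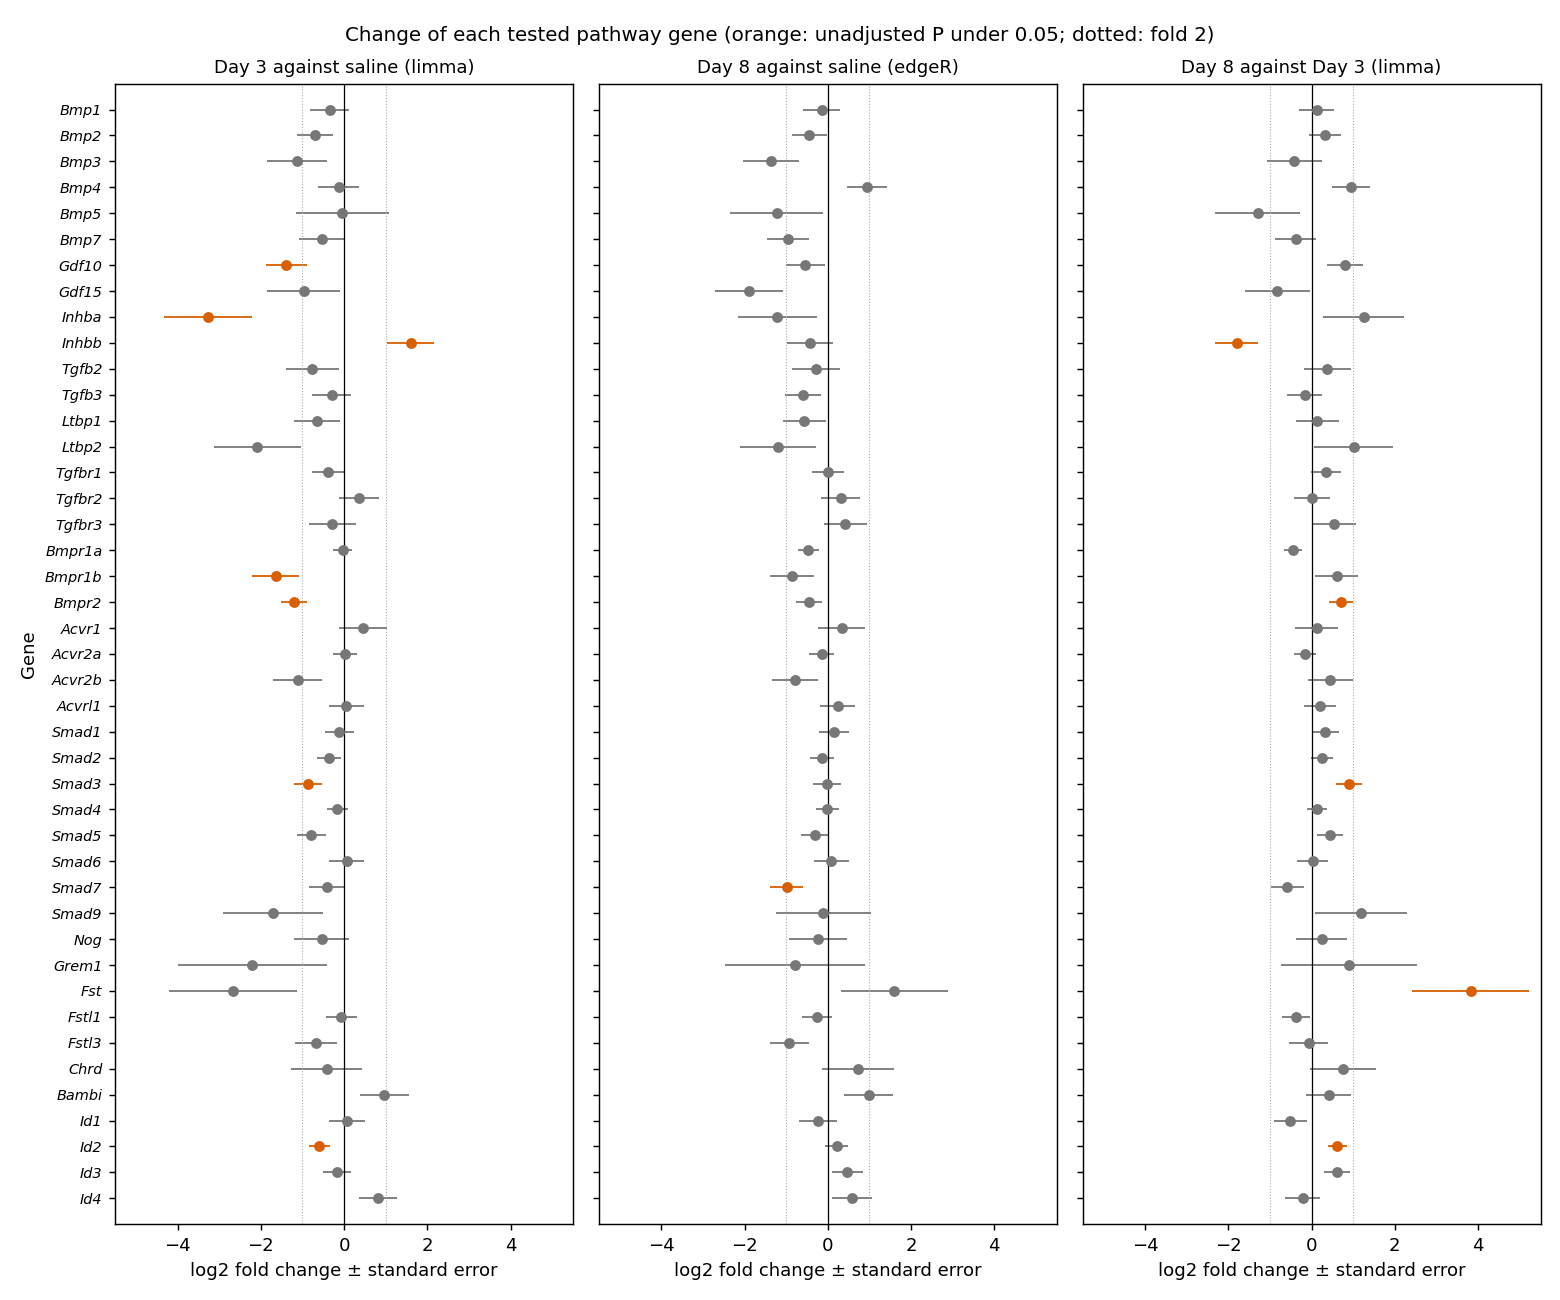
Log2 fold change of each of the 43 tested members with its standard error, for Day 3 against saline (limma), Day 8 against saline (edgeR) and Day 8 against Day 3 (limma). Orange points have an unadjusted p under 0.05 and dotted lines mark a fold of 2. The left panel has 7 orange points, the middle panel has 1 (Smad7), and the right panel has 5.

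Among the SMADs, Smad3, which carries activin and TGF-beta signals, was at 44.1 and 24.7 CPM in saline, 17.8 CPM in both Day 3 libraries, and 30.1, 34.6 and 37.4 CPM at Day 8. Both Day 3 libraries were below all 5 others, while the Day 8 libraries lay between the 2 saline values. On the log2 scale Day 3 differed from saline by -0.86 (SE 0.34, limma unadjusted p = 0.036) and Day 8 from Day 3 by 0.90 (SE 0.31, limma unadjusted p = 0.02), both under a fold of 2. Without saline replicate 1 the Day 3 value was -0.39 (limma unadjusted p = 0.19). Both p values were also above 0.05 without either Day 3 library and without Day 8 replicate 2 or 3. Smad5, a BMP SMAD, was at 209 and 114 CPM in saline, 104 and 99.5 CPM at Day 3, and 111, 129 and 150 CPM at Day 8 (Day 3 log2 fold change -0.79, SE 0.35, limma unadjusted p = 0.055).

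Smad7, the inhibitory SMAD that is itself induced by TGF-beta, was the member with the smallest p at Day 8. It was at 16.4 and 9.87 CPM in saline, 8.09 and 10.5 CPM at Day 3, and 8.03, 5.09 and 6.8 CPM at Day 8. The Day 8 libraries were below both saline libraries and both Day 3 libraries. The fold was 1.98 lower at Day 8 than in saline (log2 fold change -0.99, SE 0.40, edgeR unadjusted p = 0.042), just short of 2. The p was above 0.05 without saline replicate 1 (log2 fold change -0.57, edgeR unadjusted p = 0.25), without Day 8 replicate 2 (edgeR unadjusted p = 0.14) and without Day 8 replicate 3 (edgeR unadjusted p = 0.093). Both thresholds were passed without saline replicate 2 (-1.31, edgeR unadjusted p = 0.024) and without Day 8 replicate 1 (-1.14, edgeR unadjusted p = 0.037). Adipocyte markers were also lower at Day 8, with 8 of 10 past the thresholds by edgeR, and their part in the Smad7 result was not tested. Smad4, the common partner, was at 69.1 and 63.6 CPM in saline, 61.9 and 60.9 CPM at Day 3, and 52.9, 73 and 72 CPM at Day 8. Smad1 ranged from 33.6 to 66.3 CPM, Smad2 from 17.4 to 28.4 CPM and Smad6 from 6.06 to 9.87 CPM over the 7 libraries, with no p under 0.05. Smad9 was near the floor in part of the libraries, with 18 and 9 counts in saline, 3 in Day 3 replicate 2, and 1, 34 and 12 at Day 8.

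Of the antagonists, Fst, which encodes follistatin, the antagonist of activin and a progesterone-responsive gene of the uterus, varied widely between libraries. It was at 6.43 and 41 CPM in saline, 2.19 and 2.41 CPM at Day 3, and 3.78, 86.9 and 126 CPM at Day 8. The Day 3 libraries were lowest, Day 8 replicate 1 was near them, and Day 8 replicates 2 and 3 were the highest of all 7. Fst had a log2 fold change of 3.82 at Day 8 against Day 3 (SE 1.41, limma unadjusted p = 0.026), a fold of 14.1. It was 5.36 without Day 8 replicate 1 (limma unadjusted p = 0.00029). The p was above 0.05 without Day 3 replicate 1 (limma unadjusted p = 0.086), Day 3 replicate 2 (limma unadjusted p = 0.076), Day 8 replicate 2 (limma unadjusted p = 0.076) or Day 8 replicate 3 (limma unadjusted p = 0.08). Against saline the log2 fold change was 1.60 at Day 8 (SE 1.28, edgeR unadjusted p = 0.25) and -2.66 at Day 3 (SE 1.54, limma unadjusted p = 0.12). Without Day 8 replicate 1, Fst passed both thresholds higher at Day 8 (2.16, edgeR unadjusted p = 0.038) and lower at Day 3 (-2.64, limma unadjusted p = 0.012). The Day 3 difference also passed by edgeR with estimated counts (-3.37, edgeR unadjusted p = 0.047) and with only the groups compared in the fit (-2.66, limma unadjusted p = 0.029). Of 9 tested progesterone-induced uterine genes, 3 passed higher at Day 8 than at Day 3 and 0 lower. The 3 were Ihh, Cyp26a1 and Fst itself, so Fst is one of the calls of its own list. The summed level of the list, which includes Fst, was 496 and 570 CPM at Day 3 and 521, 690 and 948 CPM at Day 8. Of 10 oestrogen-induced genes, 4 passed lower and 0 higher, with sums of 1934 and 1769 CPM at Day 3 and 1359, 695 and 834 CPM at Day 8. The part of these lists in the Fst result was not tested.

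Bambi, a pseudoreceptor that blocks BMP and activin signals, was at 6.06 and 27.4 CPM in saline, 21.2 and 28.6 CPM at Day 3, and 33, 32.3 and 34 CPM at Day 8. The Day 8 libraries were above the 4 others, but saline replicate 1 was far lower than the rest (log2 fold change against saline 0.98, SE 0.58, edgeR unadjusted p = 0.13, and 0.28 without saline replicate 1). Without saline replicate 2 it was 2.45 (edgeR unadjusted p = 0.00052). Fstl3, an activin antagonist related to follistatin, was at 58.6 and 19.7 CPM in saline and between 16.1 and 24.3 CPM in the CXCL12 libraries. Its log2 fold change at Day 8 was -0.92 (SE 0.47, edgeR unadjusted p = 0.09) and 0.06 without saline replicate 1, and it passed both thresholds without saline replicate 2 (-1.50, edgeR unadjusted p = 0.0046). Fstl1 ranged from 175 to 414 CPM and had no p under 0.05. Of the BMP antagonists noggin and chordin, Nog ranged from 1.06 to 3.83 CPM and Chrd from 1.06 to 9 CPM, and neither had a p under 0.05. Grem1 had 2 and 11 counts in saline, 0 in Day 3 replicate 2, and 0, 13 and 0 at Day 8, so no fold is given.

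The ID genes showed small differences. Id2 was at 397 and 311 CPM in saline, 284 CPM in both Day 3 libraries, and 399, 431 and 402 CPM at Day 8. The Day 3 libraries were the lowest and the Day 8 libraries the highest, with saline replicate 1 close to Day 8. Day 8 exceeded Day 3 by a log2 fold change of 0.62 (SE 0.23, limma unadjusted p = 0.027), and 0.48 with TMM in place of quantile normalization (limma unadjusted p = 0.047). Against saline, the Day 3 log2 fold change was -0.59 (SE 0.25, limma unadjusted p = 0.047), which was -0.26 with TMM (limma unadjusted p = 0.28). At Day 8 against saline it was 0.21 (SE 0.27, edgeR unadjusted p = 0.45).
Id3 was at 90.2 and 146 CPM in saline, 116 and 107 CPM at Day 3, and 122, 220 and 151 CPM at Day 8 (Day 8 against Day 3 log2 fold change 0.61, SE 0.31, limma unadjusted p = 0.086). Id1 was at 107 and 100 CPM in saline, 116 and 126 CPM at Day 3, and 148, 60.4 and 55.1 CPM at Day 8. Day 8 replicate 1 held the highest Id1 of the 7 libraries and Day 8 replicates 2 and 3 the lowest. For Bmp4, Day 8 replicates 2 and 3 held the highest levels. Id4 ranged from 7.42 to 22.2 CPM with no p under 0.05.
The promoters of Id2 (chr12:25096093-25096342, minus strand) and Id3 (chr4:136143572-136143821, plus strand) are shown because ID genes read out BMP signalling. The Id2 window held 1 GGCGCC and no CAGAC, and the Id3 window held 2 matches to CAGAC or its reverse complement and no GGCGCC.
Id2: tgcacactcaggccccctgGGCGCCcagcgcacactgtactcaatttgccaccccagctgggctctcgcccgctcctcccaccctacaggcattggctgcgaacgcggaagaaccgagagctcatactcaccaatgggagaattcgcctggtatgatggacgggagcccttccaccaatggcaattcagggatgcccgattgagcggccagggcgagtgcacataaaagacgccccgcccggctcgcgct
Id3: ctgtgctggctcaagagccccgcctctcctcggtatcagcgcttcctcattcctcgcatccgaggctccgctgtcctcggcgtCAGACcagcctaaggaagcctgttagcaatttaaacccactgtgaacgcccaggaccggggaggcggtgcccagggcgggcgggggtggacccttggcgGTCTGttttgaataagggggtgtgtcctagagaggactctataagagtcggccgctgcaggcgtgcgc

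A further list of 88 genes of the pathway outside the set, of which 87 are in the tables, was read beside the members. At Day 8 against saline 2 of 69 tested genes passed the thresholds lower and 0 higher, beside 2.94% of all genes (1.42% lower and 1.53% higher), so the share was near that of all genes. Thbs1, which encodes thrombospondin 1, an activator of latent TGF-beta, was at 79.1 and 42.1 CPM in saline, 16 and 26.7 CPM at Day 3, and 17.8, 17.4 and 17.6 CPM at Day 8. Every CXCL12 library was below both saline libraries. Thbs1 had a log2 fold change of -1.78 at Day 8 (SE 0.33, edgeR unadjusted p = 0.00098) and -1.49 at Day 3 (SE 0.39, limma unadjusted p = 0.0052). The adjusted p at Day 8 was 0.96 by edgeR, and ranged over the alternatives from 0.01 by DESeq2 to 1.00. The Day 8 call held without each library in turn, at log2 fold changes from -2.16 to -1.26, and the Day 3 call was lost without saline replicate 1 (-0.99) and without Day 3 replicate 1 (-1.13).

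Pmepa1, a TGF-beta target that restrains SMAD signalling, was at 187 and 184 CPM in saline, 189 and 203 CPM at Day 3, and 109, 59.1 and 47.3 CPM at Day 8. The 3 Day 8 libraries were below the 4 others, and Day 8 replicate 1 was the nearest to them. Pmepa1 had a log2 fold change of -1.37 against saline (SE 0.39, edgeR unadjusted p = 0.0095, adjusted p = 0.96) and -1.43 against Day 3 (SE 0.33, limma unadjusted p = 0.0027, adjusted p = 0.66). Without each library in turn the difference from saline kept its call, between -1.80 and -1.14. The sum of 10 oestrogen-induced uterine genes was 1880 and 1314 CPM in saline, 1934 and 1769 CPM at Day 3, and 1359, 695 and 834 CPM at Day 8. Of these genes 1 of 10 passed lower at Day 8 than in saline and 4 of 10 lower than at Day 3, and the part of the list in the Pmepa1 result was not tested.

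At Day 3 against saline 7 of 64 tested genes of this list passed lower and 0 higher, beside 2.6% and 1.88% of all genes. Beside Gdf9, Inha, Bmp15 and Thbs1 they were Tgfbi, Msx1 and Wnt6. Gdf9, Inha and Bmp15 were high and low in the same libraries as the ovarian markers, which include Inha. The part of ovarian genes in this count was not tested. Tgfbi, a matrix protein induced by TGF-beta, was at 97.7 and 69.3 CPM in saline, 22.7 and 21 CPM at Day 3, and 85.4, 121 and 250 CPM at Day 8. Msx1, a homeobox gene linked to BMP signalling and uterine receptivity, was at 139 and 161 CPM in saline, 57.7 and 58 CPM at Day 3, and 293, 110 and 286 CPM at Day 8. Both genes were lower in the 2 Day 3 libraries than in all 5 others. The log2 fold change at Day 3 against saline was -1.93 for Tgfbi (SE 0.48, limma unadjusted p = 0.0037) and -1.48 for Msx1 (SE 0.43, limma unadjusted p = 0.0088), and each kept its call without each library in turn. Macrophage markers were also lower at Day 3, with 2 of 10 past the thresholds, and their part in the Tgfbi result was not tested. Wnt6, placed downstream of BMP2 in decidual cells, was at 10.1 and 3.32 CPM in saline, 0.216 and 0.944 CPM at Day 3, and 1.65, 5.75 and 1.47 CPM at Day 8 (limma unadjusted p = 0.0085 at Day 3 against saline, and 0.072 and 0.06 without saline replicate 1 and without Day 3 replicate 1).

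Between Day 8 and Day 3, 5 of the 64 genes passed higher and 1 lower, beside 2.26% and 2.37% of all genes. Tgfbi was higher at Day 8 than at Day 3 by 2.64 on the log2 scale (SE 0.43, limma unadjusted p = 0.0003), Msx1 by 1.89 (SE 0.39, limma unadjusted p = 0.0013) and Wnt6 by 1.96 (SE 0.83, limma unadjusted p = 0.045). Gdf9, the oocyte gene that moved with the ovarian markers, was also higher (limma unadjusted p = 0.0008). So was Wfikkn2, an antagonist of GDF ligands (2.54, SE 0.91, limma unadjusted p = 0.023). Pmepa1 was the gene that passed lower. Without each library in turn Tgfbi, Msx1, Gdf9 and Pmepa1 kept their calls, and Wnt6 and Wfikkn2 each lost theirs without Day 3 replicate 1 and without other libraries. All of these had an adjusted p of 0.51 to 0.69 by limma. Among 13 decidual genes placed downstream of BMP2, 0 of 12 tested passed at Day 8 against saline, 1 of 11 (Wnt6) passed lower at Day 3 against saline, and 2 of 11 (Wnt6 and the member Fst) passed higher at Day 8 than at Day 3.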

How the data were processed

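The 46 genes, their grouping by role and the other gene lists were chosen with earlier results of these data known. The authors aligned reads with Bowtie2 and counted them with Bedtools, using unique and multiple alignments. The builds named in the submitters' processing notes are hg19 and mm10. Of the 7 deposited tables, 6 hold raw read counts per gene as deposited, and that of Day 3 replicate 1 was deposited as log2 values of normalized counts plus 1. Undoing the log2 and dividing by 1.0515 gave values within 0.1 of a whole number for 97.7% of 2275 low values.

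Day 8 against saline was tested with edgeR (quasi-likelihood F test, 6 count libraries, TMM, filterByExpr, 3 groups in one fit, 3 residual degrees of freedom, biological coefficient of variation 42.2%). Both comparisons with Day 3 were tested by limma with trend on log2 values with a pseudocount of 1, quantile-normalized over 7 libraries (4 residual degrees of freedom), so those fold changes understate low genes. Standard errors of edgeR were derived from the fold change and its F statistic. The p values were adjusted by Benjamini-Hochberg over all genes tested. R 4.3.3, edgeR 4.0.16, limma 3.58.1 and DESeq2 1.42.0 were used, and the fits were tested on simulated data. Named genes were Bmp2 and Bmp4, members past a fold of 2 and p of 0.05, those of smallest p in each comparison and role, and other pathway genes past both thresholds.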

Additional observations from a re-analysis of the deposited data

Results flagged for a closer look

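For Smad1 and Id3 every Day 3 library lay below the saline mean and every Day 8 library above it, on the log2 scale. Smad1 stood at -0.14 and -0.09 at Day 3 and at 0.10, 0.18 and 0.38 at Day 8. The difference between Day 8 and Day 3 was 0.33 for Smad1 (limma adjusted p = 0.82). Id3 stood at -0.14 and -0.21 at Day 3 and at 0.02, 0.92 and 0.36 at Day 8, and its difference between the times was 0.61 (limma adjusted p = 0.72). Neither difference passed the test. The saline libraries lay apart, at 66.3 and 33.6 CPM for Smad1 and at 90.2 and 146 CPM for Id3. Every CXCL12 library lay between the saline values for Smad1, as did both Day 3 libraries and Day 8 replicate 1 for Id3.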

How the results depend on the processing

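For Day 8 against saline, the count of genes past both thresholds ran from 229 to 1527 as each library was left out, and that of members from 0 to 6. The count of members was 1 with upper-quartile normalization (Smad7), 2 with limma on 7 libraries (Bambi and Bmp3) and 1 with only the groups compared (Gdf15). For Day 3 against saline, the counts without each library ran from 268 to 2892 genes and from 1 to 14 members, and for Day 8 against Day 3 from 297 to 1668 genes and from 1 to 6 members. Leaving out saline replicate 1 turned the sign for 19 of 43 members at Day 8 and for 17 at Day 3, among them Bmp2, Fstl3 and Tgfb3 at Day 8. Without each library in turn the Day 8 values of these 3 ran from -0.87 to 0.18, from -1.50 to 0.06 and from -1.14 to 0.25, and Bmp4 at Day 3 ran from -0.27 to 0.00. The cause was not tested.

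Samples of the same replicate number did not deviate together. The correlations were -0.0533 for saline and Day 3, and -0.165 and -0.0743 for saline and Day 8. For Day 3 and Day 8 they were -0.00661 and -0.0335. In a group of 2 libraries the deviations mirror each other, so the value for saline and Day 3 is the same for both numbers. The labels do not tie replicate numbers to animals, so these correlations cannot show whether libraries were paired. Replicate number 3 occurs only at Day 8, so a block by number takes that library out of the Day 8 estimate. With the replicate number as a block, 157 genes and 0 members passed at Day 8 against saline. In the block fits 569 genes and 6 members passed at Day 3 against saline, and 426 genes and 3 members at Day 8 against Day 3. Pmepa1 at Day 8 against saline then had an edgeR log2 fold change of -1.21 and was no longer past the thresholds (edgeR unadjusted p = 0.061), and Fst at Day 3 against saline and Inhba at Day 8 against Day 3 were then past them (limma unadjusted p of 0.028 and 0.0057). With 2 or 3 libraries in a group and 3 or 4 residual degrees of freedom, genes near the floor of 3 counts were the least precise.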
